A study of Mus musculus with 8 samples.

Results

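Interferon-gamma response genes were followed in enterocytes, the absorptive cells lining the small intestine, from mice whose gut epithelium carries a deletion of Cpr, the gene of the reductase that feeds electrons to cytochrome P450 enzymes. The 9 genes were Ifngr1, Irf1, Gbp2, Gbp3, Igtp, Irgm1, Cxcl9, Cxcl10 and Socs1. Every probe set whose only gene symbol in the array's annotation was one of these names was taken, which gave 10 of the 18443 probe sets, 2 for Gbp2 and 1 for each other gene (9 of 10401 named genes). Groups were IE-Cpr-null mice and their wild-type (WT) littermates, all males of the C57BL/6 strain aged 2.5 to 3.0 months on a standard diet. There were 4 arrays per genotype and 1 RNA pool of 2 mice on each array, hence 8 mice behind each genotype. Every SD below is a spread between pools. SEs and intervals rest on that spread too, drawn by the limma fit towards a value shared by all probe sets. The labels do not name the promoter that drives the deletion. Values were log2 intensities from which the median of the WT arrays had been subtracted probe set by probe set, so that 0 is that median and the level of a transcript is not known.

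Interferon-gamma is a cytokine released mainly by T cells and natural killer cells. It binds a receptor made of the Ifngr1 and Ifngr2 chains, and the kinases Jak1 and Jak2 on that receptor start a signal that switches on a first wave of genes, which includes Irf1. Irf1 then acts on genes of guanylate-binding proteins (GBP), immunity-related GTPases (IRG), chemokines and antigen presentation, and the inhibitor Socs1 is also induced. In intestinal epithelium this cytokine is also known as an inducer of MHC class II through Ciita.

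Among the 10 probe sets, the 2 of Gbp2 were the ones in which every IE-Cpr-null pool lay above every WT pool, with differences of 1.16 (SE 0.373) and 1.09 (SE 0.215) on the log2 scale, about 2.23-fold and 2.13-fold. The inducible GTPase genes Igtp and Irgm1, the transcription factor Irf1 and the receptor chain Ifngr1 were uneven among the IE-Cpr-null pools, highest in pools 2 and 3 and lowest in pool 1. The chemokines Cxcl9 and Cxcl10 lay between -0.18 and 0.16 in all 8 pools, with no IE-Cpr-null pool outside the range of the WT pools. Socs1 was high in a single IE-Cpr-null pool. No member passed the threshold, an adjusted p of 0.05 in limma with Benjamini-Hochberg adjustment over all probe sets (0 of 10, adjusted p from 0.252 to 0.978). At an unadjusted p under 0.05 there were 2, both of Gbp2. The background in this comparison was 4 of 18443 probe sets called, or 0.0217%, and 7.4% at an unadjusted p under 0.05. Of all probe sets 758 (4.11%) had genotypes that did not overlap, 303 of them (1.64%) with IE-Cpr-null higher, as in both Gbp2 probe sets. Without IE-Cpr-null pool 1 the genotypes did not overlap in 4 of the 10 (Igtp and Socs1 beside Gbp2), when 10.1% of all probe sets did so. For Socs1 that rested on a very small margin, IE-Cpr-null pool 2 at 0.0313 beside WT pool 2 at 0.0302. IE-Cpr-null pool 1 was the lowest of its genotype in Igtp and Socs1, so leaving it out had to raise both differences. Of the 10 differences 8 were above 0, beside 57.5% of all probe sets.

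**Figure D1:**
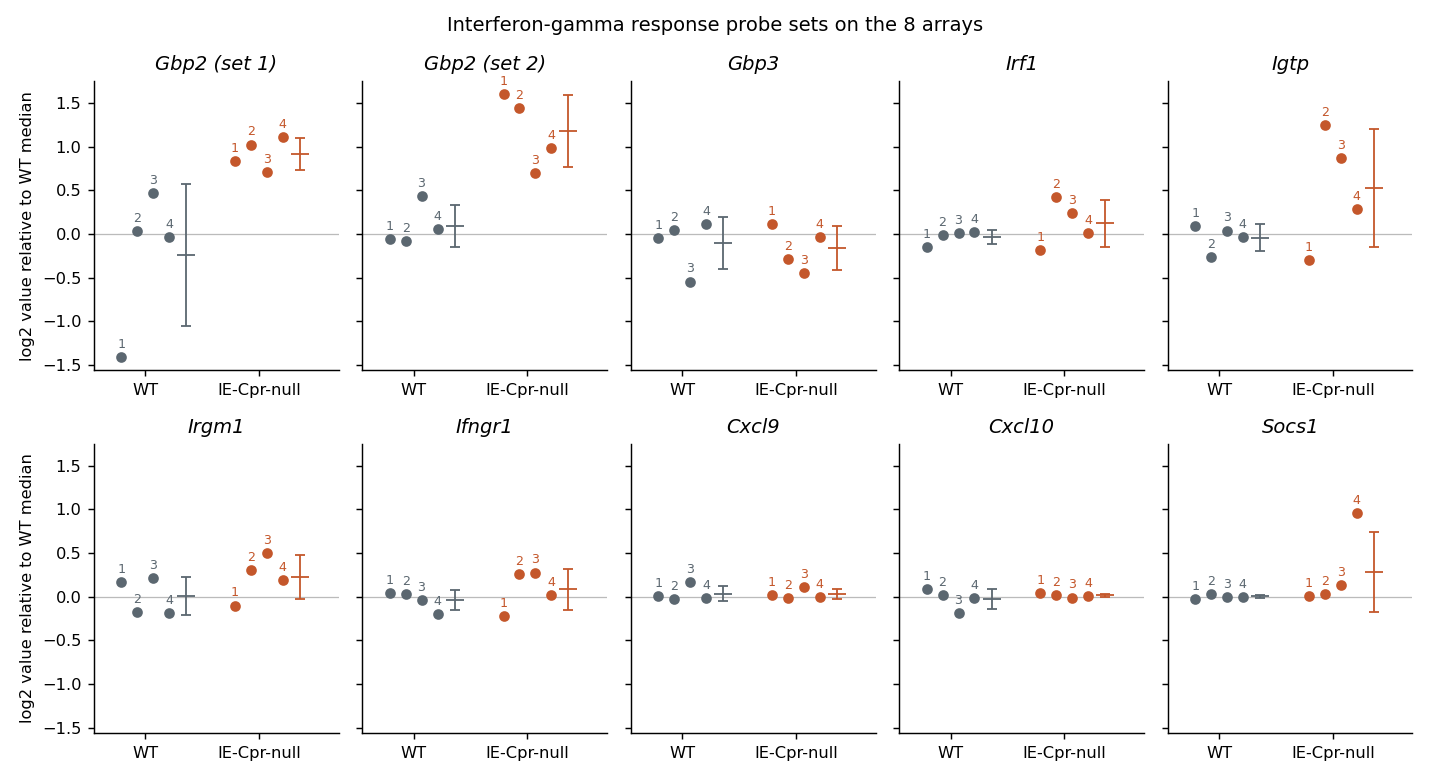
Values of the 10 probe sets on the 8 arrays, in log2 units relative to the WT median, with pool numbers beside the points and bars for the mean ± SD of 4 pools. Set 1 and set 2 are the first and second Gbp2 probe sets of the text. All IE-Cpr-null points of Gbp2 lie at 0.70 or above and all WT points at 0.46 or below.

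Gbp2 and Gbp3 encode guanylate-binding proteins, large GTPases that gather on membranes of intracellular microbes. In the first Gbp2 probe set the WT pools 1 to 4 stood at -1.41, 0.03, 0.46 and -0.03, and the IE-Cpr-null pools 1 to 4 at 0.83, 1.02, 0.71 and 1.11. WT pool 1 was far below the other WT pools, and the IE-Cpr-null pools were close together. The means were -0.24 ± 0.813 in WT and 0.92 ± 0.182 in IE-Cpr-null (SD, n = 4 each), with an interval of the difference from 0.29 to 2.02 at 95% and a limma adjusted p of 0.502. Without WT pool 1 the difference was 0.76.

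The second Gbp2 probe set, whose ID ends in _x_at, gave WT pools of -0.06, -0.08, 0.43 and 0.06 and IE-Cpr-null pools of 1.60, 1.44, 0.70 and 0.98. Here WT pool 1 lay with the other WT pools, so the low value of the first probe set was not shared. The difference had an interval from 0.59 to 1.59 and a limma adjusted p of 0.252. Probe sets with this suffix hold probes that can match other genes, and signal of related GBP transcripts on it cannot be told apart from Gbp2. In each probe set an exact two-sided permutation test over the 70 assignments of 4 against 4 pools gave p = 0.0286, the smallest this design allows. WT pool 3 was the highest WT pool in both, and it was also the WT pool with the lowest pancreatic acinar transcripts (mean of 9 measured of 12 listed markers -5.41, against -0.68 to 1.69 in the other WT pools and -5.47 to -2.25 in IE-Cpr-null). All 9 acinar markers were lower in IE-Cpr-null. WT pool 3 also had the highest mean of macrophage and dendritic cell markers among the WT pools (0.65, against -0.37 to 0.05). That mean ran from -0.84 to -0.20 in IE-Cpr-null. The part of either cell type in the Gbp2 values was not tested. Without WT pool 3 the Gbp2 differences were 1.39 and 1.21. With arrays weighted by how closely they fitted their genotype mean over all probe sets, both Gbp2 probe sets passed. Their differences were 1.15 (limma adjusted p = 0.0425) and 0.95 (adjusted p = 0.0228), in a setting that called 4.02% of all probe sets. Over all alternatives their limma adjusted p ran up to 0.97, reached with quantile normalization.

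Gbp3, a gene of the same GBP cluster on chromosome 3, did not show this separation. Its WT pools were -0.04, 0.04, -0.54 and 0.11 and its IE-Cpr-null pools 0.11, -0.29, -0.44 and -0.03, and the genotypes overlapped. The difference was -0.054 (SE 0.176, interval -0.46 to 0.36, limma adjusted p = 0.912). The contrast between these genes was tested within arrays, as Gbp2 minus Gbp3, after the values had been seen. The genotypes differed in that quantity by 1.21 with the first Gbp2 probe set (exact permutation p = 0.0571) and by 1.15 with the second (exact permutation p = 0.0286). With the mean of both probe sets the gap was 1.18 (exact permutation p = 0.0286). Adjusted over these 3 comparisons the permutation p-values were 0.0571, 0.0429 and 0.0429 in the same order, so the side of 0.05 depended on the probe set. The 3 comparisons share values, and the adjustment does not cover the choice of this pair from its values. No difference between the genes is therefore called from them.

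**Figure D2:**
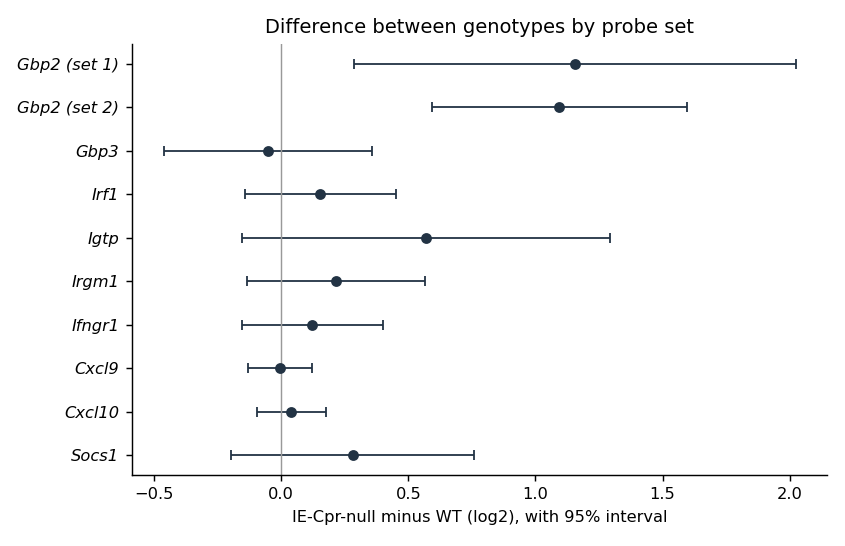
Difference between IE-Cpr-null and WT for each probe set on the log2 scale (points) with the 95% interval from limma (bars), 4 pools per genotype. The intervals of both Gbp2 probe sets lie above 0, and those of the other 8 include 0.

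Igtp and Irgm1 encode immunity-related GTPases, which act with the GBPs against intracellular microbes. For Igtp the WT pools were 0.09, -0.26, 0.04 and -0.04, and the IE-Cpr-null pools were -0.30, 1.25, 0.87 and 0.29. IE-Cpr-null pools 2, 3 and 4 were thus above every WT pool while pool 1 was below every WT pool. The difference was 0.57 (SE 0.31, interval -0.15 to 1.29, limma adjusted p = 0.78; exact permutation p = 0.229). It was 0.84 without IE-Cpr-null pool 1, 0.33 without pool 2 and 0.039 without pools 2 and 3 together.

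Irgm1 was likewise highest in IE-Cpr-null pools 2 and 3 and, within that genotype, lowest in pool 1. WT pools stood at 0.17, -0.17, 0.22 and -0.19, and IE-Cpr-null pools at -0.10, 0.30, 0.50 and 0.20. The genotypes overlapped, with a difference of 0.22 (SE 0.15, interval -0.13 to 0.57, limma adjusted p = 0.86). It was 0.32 without IE-Cpr-null pool 1, 0.13 without pool 3 and 0.041 without pools 2 and 3.

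Irf1, the transcription factor of the first wave, had WT pools of -0.15, -0.01, 0.01 and 0.03, beside IE-Cpr-null pools of -0.19, 0.42, 0.24 and 0.01. Its 2 highest values came from IE-Cpr-null pools 2 and 3 and its lowest from IE-Cpr-null pool 1. The difference was 0.15 (SE 0.128, interval -0.14 to 0.45, limma adjusted p = 0.86). Without pools 2 and 3 it turned to -0.058.

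Ifngr1, the ligand-binding chain of the receptor, had WT pools of 0.04, 0.03, -0.03 and -0.20, beside IE-Cpr-null pools of -0.22, 0.26, 0.28 and 0.02. Again IE-Cpr-null pools 2 and 3 were high and pool 1 low. The difference was 0.12 (SE 0.12, interval -0.16 to 0.40, limma adjusted p = 0.86), and -0.062 without those 2 pools.

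These 4 genes were the members in which IE-Cpr-null pools 2 and 3 both exceeded pools 1 and 4 (4 of 10 member probe sets, against 13.3% of all probe sets). Other lists had this pattern too. Counted by gene it held for 4 of 9 members (44.4%), for 55.6% of the class I presentation genes and 45.5% of the type I interferon genes described below, and for 14.2% of all genes. Pools 2 and 3 were also the arrays rich in hepatocyte transcripts, with a mean over 10 measured of 12 listed markers of 5.97 and 3.71 against -0.14 to 0.21 on the other 6 arrays, and all 10 were higher in IE-Cpr-null. IE-Cpr-null pool 1, lowest in 5 of the 10 member probe sets against 27.1% of all probe sets, was the array richest in muscle and stroma transcripts, at 4.69 over 10 markers against -0.44 to 1.96 elsewhere. Markers of T cells and natural killer cells, which can make interferon-gamma, ran from -0.06 to 0.08 in WT and stood at -0.11, 0.13, 0.10 and 0.16 in IE-Cpr-null pools 1 to 4 (14 measured of 16). Markers of enterocytes ran from -0.12 to 0.04 in WT and from -0.11 to 0.03 in IE-Cpr-null (9 measured of 11). The part of these cell types in the values of the members was not tested. In such preparations more cells of a type and more RNA per cell cannot be told apart.

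The RefSeq promoter windows of the members (GRCm38.p6, 250 bases before to 50 after each transcript start) were searched on both strands for letters resembling the binding elements of interferon-regulated factors. GAAANNGAA, letters of the repeated element bound by IRF proteins, and TTCNNNGAA, the palindrome of the gamma-activated sequence, were used. The table held windows for all 9 genes, 11 in all. GAAANNGAA lay in 7 windows, 1 each of Gbp2, Gbp3, Igtp, Irgm1, Cxcl9, Cxcl10 and Socs1, and in 8.56% of the 32851 promoters searched. TTCNNNGAA lay in 2, those of Irf1 and Igtp, and in 8.3% of all promoters. The Ifngr1 window held neither. In Gbp3, Irgm1 and Socs1 there were 2 overlapping GAAANNGAA matches, and no match of one motif overlapped one of the other. A match is a run of letters, not a measured binding site. The windows below start with that of the gene whose pools separated by genotype (Gbp2). Next are those of 2 genes that varied together among the IE-Cpr-null pools (Igtp and Irf1). The last is that of a chemokine with every IE-Cpr-null pool inside the WT range, although its window holds a match (Cxcl10). Each is written 5′ to 3′ on the strand of the gene, with the matches in capitals.
Gbp2, chr3:142620413-142620712, plus strand: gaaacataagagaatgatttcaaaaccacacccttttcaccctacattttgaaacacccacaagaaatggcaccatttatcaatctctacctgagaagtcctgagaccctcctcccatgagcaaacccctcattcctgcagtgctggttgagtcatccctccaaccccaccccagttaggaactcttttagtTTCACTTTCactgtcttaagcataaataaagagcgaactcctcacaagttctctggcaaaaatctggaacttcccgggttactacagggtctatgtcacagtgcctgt
Igtp, chr11:58199306-58199605, plus strand: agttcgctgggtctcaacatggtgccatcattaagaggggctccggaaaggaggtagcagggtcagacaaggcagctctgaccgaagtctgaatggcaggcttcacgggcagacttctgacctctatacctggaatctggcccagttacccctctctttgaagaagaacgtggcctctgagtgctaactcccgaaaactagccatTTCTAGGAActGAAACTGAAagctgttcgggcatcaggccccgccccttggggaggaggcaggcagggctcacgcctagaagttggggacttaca
Irf1, chr11:53769764-53770063, plus strand: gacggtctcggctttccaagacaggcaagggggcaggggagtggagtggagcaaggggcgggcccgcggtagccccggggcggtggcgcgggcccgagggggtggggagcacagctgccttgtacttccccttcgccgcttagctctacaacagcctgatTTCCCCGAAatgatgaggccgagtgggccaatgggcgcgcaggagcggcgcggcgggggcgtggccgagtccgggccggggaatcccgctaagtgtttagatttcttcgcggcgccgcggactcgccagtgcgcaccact
Cxcl10, chr5:92348840-92349139, minus strand: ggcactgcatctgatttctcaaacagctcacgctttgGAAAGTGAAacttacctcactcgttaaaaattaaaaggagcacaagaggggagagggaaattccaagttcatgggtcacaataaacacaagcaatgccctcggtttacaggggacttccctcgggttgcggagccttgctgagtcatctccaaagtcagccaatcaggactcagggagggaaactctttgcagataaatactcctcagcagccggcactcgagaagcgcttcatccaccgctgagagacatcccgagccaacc
The Gbp2 match reads on the strand opposite to the gene and lies between 58 and 50 bases before the start. In Igtp the TTCNNNGAA match, 45 to 37 bases before the start, is followed by the GAAANNGAA match, 34 to 26 bases before it. The Irf1 match lies 90 to 82 bases before the start, and that of Cxcl10 213 to 205 bases before it. The presence of a match did not sort the members by their difference: Gbp2, Gbp3 and Cxcl10 each hold GAAANNGAA, at differences of 1.16 or 1.09, -0.054 and 0.040.

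Cxcl9 and Cxcl10 encode chemokines that draw T cells carrying the receptor Cxcr3. For Cxcl9 the WT pools were 0.010, -0.026, 0.163 and -0.010, and the IE-Cpr-null pools 0.024, -0.010, 0.111 and -0.0054. For Cxcl10 the WT pools were 0.085, 0.014, -0.184 and -0.014, and the IE-Cpr-null pools 0.038, 0.020, -0.0096 and 0.011. In neither gene did any IE-Cpr-null pool lie outside the range of the WT pools. The differences were -0.0045 (SE 0.0539, interval -0.13 to 0.12, limma adjusted p = 0.978) and 0.040 (SE 0.0586, interval -0.10 to 0.18, limma adjusted p = 0.86). Since levels are unknown, such flat values cannot be told apart from probe sets without signal over background.

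Socs1 encodes an inhibitor that blocks the receptor-associated kinases and is itself induced by the cytokine. WT pools were -0.022, 0.030, 0.0002 and -0.0002, and IE-Cpr-null pools 0.0052, 0.031, 0.133 and 0.962. IE-Cpr-null pool 4 stood apart, and the other 7 values lay between -0.022 and 0.133. The difference was 0.28 (SE 0.206, interval -0.20 to 0.76, limma adjusted p = 0.86; exact permutation p = 0.0571), and without that pool it was 0.054. With array weights it was 0.78 (limma adjusted p = 0.081).

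Upstream of the members, the cytokine and its signalling chain had small differences. Levels are unknown too, so flat values such as those of Ifng and Eomes cannot be told apart from probe sets without signal over background. Ifng itself lay between -0.052 and 0.045 over the WT pools and between -0.0037 and 0.063 over the IE-Cpr-null pools, a difference of 0.033 (SE 0.0362, interval -0.05 to 0.12, limma adjusted p = 0.836). The second receptor chain, Ifngr2, differed by 0.031 (interval -0.06 to 0.13), Jak1 by -0.061 (interval -0.25 to 0.13) and Jak2 by -0.012 (interval -0.19 to 0.16). The signalling list had 9 measured genes, 5 of them above 0 and 4 below. Its median was 0.012 beside 0.016 for all genes. None (0) was called by limma over the 10401 genes, of which 0.0288% were. At an unadjusted p under 0.05 there were also 0 in that list, beside 8.69% of all genes. The genes with the smallest p were the inhibitor Socs3 (0.29, SE 0.188), the signalling inhibitor Pias4 (-0.16, SE 0.111) and its relative Pias1 (0.082, SE 0.0623). Among 5 measured genes that act in inducing the cytokine, 4 were higher and 1 lower with 0 called, and Il18, an inducing cytokine made by epithelium, stood at -0.35 (SE 0.158, interval -0.72 to 0.02), the T-bet gene Tbx21 at 0.084 (SE 0.0760) and the related factor gene Eomes at 0.023 (SE 0.0338).

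Further GTPases of the GBP and IRG families were also highest in IE-Cpr-null pools 2 and 3. All 5 measured genes had a positive difference, with a median of 0.47 beside 57.6% of all genes with a positive difference. None (0) was called by limma, and 1, Gbp7, had an unadjusted p under 0.05. Irgm2 gave WT pools of 0.22, -0.25, -0.03 and 0.03 and IE-Cpr-null pools of -0.26, 0.91, 0.86 and 0.42 (difference 0.49, SE 0.258, adjusted p = 0.688). Gbp7 (0.47, SE 0.191, interval 0.02 to 0.91, limma adjusted p = 0.548) and Gbp8 (0.47, SE 0.211, interval -0.02 to 0.96) were the others with the smallest p. In all 5 genes these 2 pools were the highest of their genotype, as in 14.2% of all genes. IE-Cpr-null pool 1 was the lowest of its genotype in 4 of the 5, as in 28.5% of all genes. Without pools 2 and 3 the list median was 0.088. Without pool 2 alone it was 0.28.

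**Figure D3:**
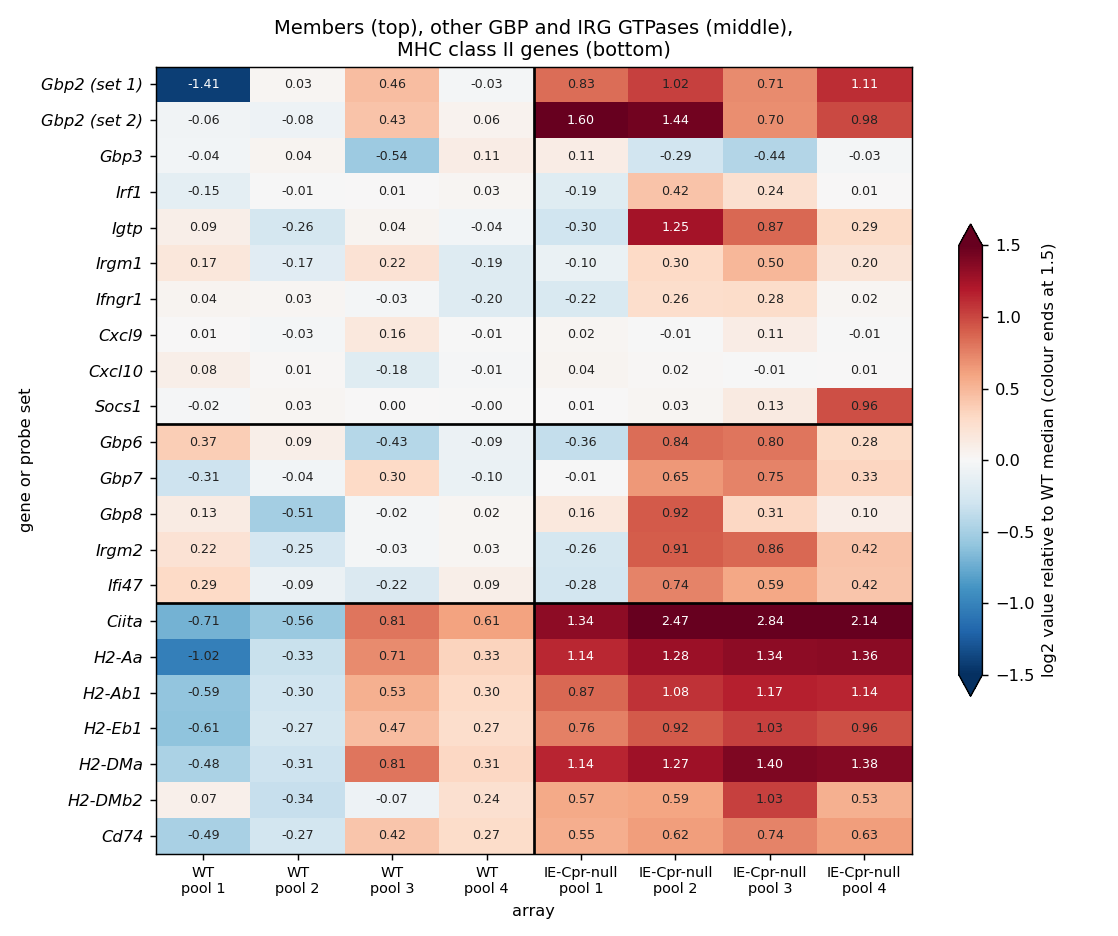
Log2 values relative to the WT median on each of the 8 arrays (columns) for the 10 member probe sets, 5 other GTPase genes and 7 MHC class II genes (rows). Igtp and Irgm2 are red in IE-Cpr-null pools 2 and 3 and pale blue in pool 1, while Gbp2 and the MHC class II genes are red in all 4 IE-Cpr-null pools.

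The mean of both Gbp2 probe sets lay closest to MHC class II genes. Likeness was the root mean square difference from the mean of the Gbp2 probe sets over the 8 arrays, taken over 2150 named probe sets with an SD above 0.3, whose median was 0.971. The closest 5 genes were H2-Eb1 (0.265), H2-Ab1 (0.269) and H2-Aa (0.275), which encode chains of the MHC class II molecules, Cyp51, the lanosterol demethylase of cholesterol synthesis (0.306), and Secisbp2l (0.317). The 2 Gbp2 probe sets themselves were 0.573 apart. H2-Eb1 stood at -0.61, -0.27, 0.47 and 0.27 in WT and at 0.76, 0.92, 1.03 and 0.96 in IE-Cpr-null. In that gene and in the Gbp2 mean WT pool 1 was the lowest WT pool and WT pool 3 the highest, but the low WT pool 1 came from the first Gbp2 probe set alone. IE-Cpr-null pool 3 was the highest of its genotype in H2-Eb1 and the lowest in both Gbp2 probe sets. A gene picked for its closeness to Gbp2 separates the genotypes by that choice, and no test was made of it.

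Other genes induced by the cytokine and neighbouring programmes were set beside the members. Another 14 measured genes of the interferon-gamma response had 11 differences above 0 and 3 below. Their median was 0.101, and 0 were called by limma. That median was 0.197 without IE-Cpr-null pool 1, 0.041 without pool 2, and -0.0052 without pools 2 and 3. At an unadjusted p under 0.05 there were 3 of 14, 2 higher and 1 lower, beside 8.69% of all genes. In 2 of the 14 the genotypes did not overlap, Cxcl11 higher and Ifi30 lower, beside 4.85% of all genes. Cxcl11, another ligand of Cxcr3, had a difference of 0.35 (SE 0.0750, interval 0.17 to 0.52, limma adjusted p = 0.242), with WT pools between -0.082 and 0.103 and IE-Cpr-null pools between 0.20 and 0.48. Cxcl9 and Cxcl10 did overlap, and the difference between these chemokines was not tested. Irf8, a transcription factor of the IRF family, stood at 0.50 (SE 0.191, limma adjusted p = 0.512) and Ifi30, a lysosomal thiol reductase gene, at -0.10 (SE 0.0402, limma adjusted p = 0.541).

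Among the 8 pathway lists, cell type markers aside, MHC class II had the largest median, 1.08 over 7 measured genes, all 7 without overlap between the genotypes beside 4.85% of all genes, and 0 called by limma. All 7 had an unadjusted p under 0.05. Ciita, the transactivator of these genes, differed by 2.16 (SE 0.449, limma adjusted p = 0.222), H2-DMa by 1.21 (SE 0.268) and H2-DMb2 by 0.70 (SE 0.154). For the 9 measured genes of MHC class I loading and the immunoproteasome the median was 0.032, with the immunoproteasome subunit gene Psmb9 at 0.36 (SE 0.127), the peptide transporter gene Tap1 at 0.14 (SE 0.0925) and the trimming peptidase gene Erap1 at -0.31 (SE 0.101). For 22 measured genes of the type I interferon response it was 0.0057, 11 lying above 0 and 11 below, and the receptor chains Ifnar2 (-0.21, SE 0.0858) and Ifnar1 (-0.10, SE 0.0530) and the antiviral gene Ifit3 (-0.28, SE 0.148) had the smallest p. None (0) of either list was called by limma. At an unadjusted p under 0.05 there were 2 of 9 class I genes and 1 of 22 type I genes, beside 8.69% of all genes. The type I median was 0.133 without IE-Cpr-null pool 1, -0.073 without pool 2 and -0.121 without pools 2 and 3, and the class I median 0.114, -0.0080 and -0.023. IE-Cpr-null pool 1 was the lowest of its genotype in 88.9% of the class I genes and 77.3% of the type I genes, beside 55.6% of the members. It was so too in 85.7% of the MHC class II genes and 71.4% of the other induced genes, beside 28.5% of all genes. The members, counted by gene, had a median of 0.15, with 7 higher and 2 lower. Macrophage and dendritic cell markers, whose cells also express MHC class II and GBP genes, stood at -0.37, -0.08, 0.65 and 0.05 in WT pools 1 to 4. They ran from -0.84 to -0.20 in IE-Cpr-null, with 9 of 11 measured (12 listed) lower. Among WT pools they were thus lowest in pool 1 and highest in pool 3, as were H2-Eb1 and the Gbp2 mean. The mean of B cell and plasma cell markers had the same lowest and highest WT pools, but its markers were not alike. In WT pool 3 Jchain stood at 1.11, and Cd79a (0.11) and Cd79b (0.067) were also at their highest WT value. Ms4a1 (-0.12) and Xbp1 (-0.095) were at their lowest WT value there, and Cd22 was at neither end. Over all arrays the mean was highest in IE-Cpr-null pool 3 (0.75, against -0.26 to 0.18 elsewhere, 6 measured of 10). The part of these cell types in these differences was not tested.

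**Figure D4:**
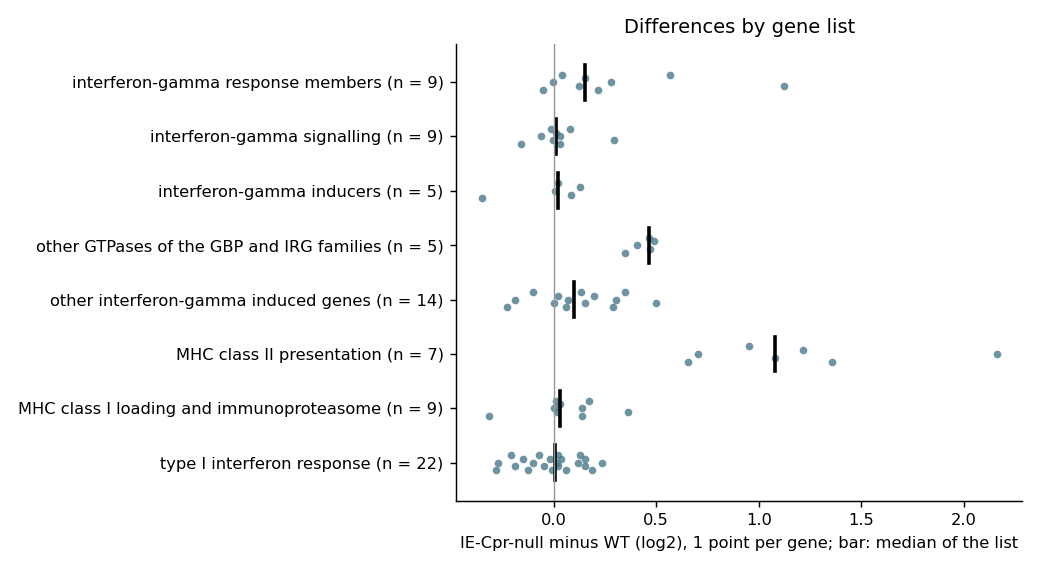
Difference between IE-Cpr-null and WT on the log2 scale for each measured gene (points) and the median of each list (bars), from 4 pools per genotype. The median is 0.15 for the members, 0.47 for the other GTPases, 1.08 for MHC class II and between 0.0057 and 0.101 for the other 5 lists.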

How the data were processed

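RNA of isolated enterocytes was measured on 8 single-colour arrays. Normalization by the authors was with GCRMA, per the submitters' processing notes, with no version named there. The deposited log2 values had the median of the 4 WT arrays at 0 (within 0.00001) in all 18443 probe sets, so expression levels and signal over background are unknown and no dim probe set was left out. The interquartile range was 0.06 to 0.10 over the WT arrays and 0.12 to 0.20 over the IE-Cpr-null arrays. Centring on the WT median draws the WT arrays towards 0, so quantile normalization of these values acts unevenly on the genotypes.

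Probe sets were named by the platform annotation: 16689 carried 1 symbol (10401 genes), 616 several, and 1138 are unnamed here. All probe sets were fitted with limma 3.58.1 (R 4.3.3; lmFit, eBayes, no block; two-sided; Benjamini-Hochberg, threshold 0.05). Intervals are at 95%. Lists used the mean of each gene's probe sets, fitted over 10401 genes. Exact permutation tests used 70 assignments. Code was tested on simulated data.

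The members, lists and named genes were chosen with earlier results of these data known. Named were all members, per list the 3 genes with the smallest p where none was called, the receptor and kinase genes, and the 5 genes most like Gbp2. The test of Gbp2 minus Gbp3 was chosen after its values were seen. Alternatives were quantile normalization, array medians set to 0, array weights, replicate number as a block, a robust prior, leaving out probe sets that can share probes or that vary little, genes as units, and leaving out arrays. The labels do not say whether replicate numbers pair the samples, and the main fit used no pairing. Deviations of same-numbered arrays correlated at -0.058, -0.041, 0.256 and 0.131. The same-numbered IE-Cpr-null array was the closest for WT pools 3 and 4, but not for WT pools 1 and 2. The labels give no batch, and the targeted gene is not analysed here. Nothing in the labels says that pools came from separate litters or days.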

Additional observations from a re-analysis of the deposited data

Results flagged for a closer look

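1 of the 20 sets of 4 values tested (10 probe sets in each genotype) had a pool far from the others. Socs1, the inhibitor gene, was 0.962 in IE-Cpr-null pool 4, and its gap to the nearest pool was 0.866 of the range of the genotype, above the 95% critical value of Dixon's test for 4 values. Chance gives about 1 such case in 20. No other member of the list was singled out in this way.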

How the results depend on the processing

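No member was called under any alternative except array weights, where 2 were (both of Gbp2). Of 166 recomputed member differences 157 kept their direction, among them all those of Gbp2, Igtp, Irgm1 and Socs1. Part of that count was fixed in advance. The replicate block, the robust prior and leaving out probe sets return the main difference of every kept probe set. Setting array medians to 0 shifts all members alike. Leaving out the hepatocyte-rich pools turned Gbp3 to 0.15, Irf1 to -0.058 and Ifngr1 to -0.062. Leaving out single arrays gave -0.20 to 0.040 for Gbp3, -0.031 to 0.038 for Cxcl9 and -0.013 to 0.076 for Cxcl10. The cause was not tested.

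The member median of 0.18 became 0.045 without the hepatocyte-rich pools, and 0.12 to 0.29 without single arrays. The hepatocyte-rich pools were also the highest of their genotype in Igtp, Irgm1, Irf1 and Ifngr1. Leaving them out therefore had to lower these differences, whatever the hepatocyte content. Members without overlap, 2 as reported, were 1 with quantile normalization (1.58% of all probe sets), without shared probes (1 of 6, beside 4.17%) and with genes as units (1 of 9, beside 4.85% of genes), 4 without the muscle-rich arrays (13.6%), and 2 to 4 without single arrays. The 4 added Igtp and Socs1 to Gbp2, without IE-Cpr-null pool 1 (10.1%). Over all probe sets, 3 were called higher and 1 lower. With the replicate block, and likewise with quantile normalization, these became 1 and 0. They were 352 and 389 with array weights, 1 and 2 without the muscle-rich arrays, and 1 to 12 and 0 to 4 without single arrays. With only variable probe sets 6 were higher. Without the hepatocyte-rich pools, and with genes as units, 0 were lower. The replicate block changed no call of a member (Gbp2 adjusted p = 0.546 and 0.472).

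With array weights the signalling median was 0.050, and called genes were 1 of the other induced genes, 5 of MHC class II, 2 of class I and 1 of type I, in a setting that called 5.63% of all genes. For class I, 0 to 1 were called without single arrays. With only variable probe sets the medians were -0.11 for the inducers (2 genes) and 0.15 for class I. The other GTPases had a median of 0.088 without the hepatocyte-rich pools. Without single arrays the medians ran from 0.0024 to 0.031 for signalling, -0.0033 to 0.036 for the inducers, 0.041 to 0.197 for the other induced genes, -0.0080 to 0.114 for class I and -0.073 to 0.133 for type I. With 4 pools per genotype, changes of the size seen in Irf1 or Ifngr1 were within the spread.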
